A study of Homo sapiens with 15 samples.

Results

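The response of cells to loss of FOXL2 was set against the response to added mutant FOXL2, gene by gene. The quantity described is a difference of effects: the knockdown effect in KGN (FOXL2 siRNA minus control siRNA) minus the mutant effect in COV434 (mutant FOXL2 minus empty vector), both on the log2 scale. It used 12 of the 15 arrays of the series, in 4 groups of 3, and all 54613 probe sets of the U133 Plus 2.0 expression array that are not array controls. These probe sets carried single symbols of 19775 genes. A difference near 0 means that both effects had a like size and sign, and a large difference means that they had opposite signs or that 1 line moved more than the other.

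FOXL2 is a forkhead transcription factor that is needed to make and to keep granulosa cells, the hormone-producing somatic cells of the ovarian follicle. A recurrent missense mutation of it is the hallmark of adult granulosa cell tumours. The protein acts together with SMAD proteins, the carriers of TGF-β, activin and BMP signals, and with steroidogenic factors, and it can raise some genes and repress others.

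KGN and COV434 are established lines from ovarian tumours that were cultured in the same medium. KGN is heterozygous for the FOXL2 mutation, and COV434 has only wildtype FOXL2. KGN cells of passage 8 received a Stealth siRNA against FOXL2 or a control siRNA of matched GC content. COV434 cells of passage 9 received 1 µg of a plasmid with mutant FOXL2 or of the empty vector. In all 4 groups 300000 cells were seeded per well, the lipid complexes were removed after 7 h, RNA was taken 24 h after transfection and 105 ng of it was labelled. Each sample is its own transfection, but those of a group were made together, so the p-values measure only the spread between wells of 1 occasion. The siRNA was a single product, its effect on each FOXL2 allele of KGN was not measured, and the contrast changes cell line, agent (siRNA or plasmid) and the direction of the FOXL2 change together, so their parts cannot be told apart.

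The probe set for FOXL2 read log2 signals of 8.13, 7.91 and 8.18 in KGN control cells and 6.24, 6.33 and 6.32 after the siRNA. All 3 knockdown arrays lay below all 3 control arrays, a fold of 3.42 (log2 effect -1.77, 95% interval -2.03 to -1.51, limma adjusted p = 2.54e-05). In COV434 the probe set read 2.68, 2.83 and 3.11 with empty vector and 2.62, 2.62 and 2.47 with the mutant plasmid. All 6 of these values lie under the background level of that line, and the probe set targets the 3′ untranslated region, which the plasmids lack, so it does not check the overexpression. FOXL2 itself therefore had a large negative difference (-1.46, adjusted p = 0.00788) that says nothing of its level from the plasmid.

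Background was taken as the 95th percentile of the mean log2 signals of 171 olfactory receptor and keratin-associated protein probe sets, genes that these cells are not known to use. It was 5.392 in KGN and 5.14 in COV434, and 19175 probe sets (35.1%) were above it in both lines. Among defining granulosa genes, FOXL2, INHBB and GATA4 were above background in KGN but not in COV434, INHBA and WT1 in both, and FSHR, AMHR2, INHA, CYP19A1 and NR5A1 in neither. Leukocyte markers were at or below background in KGN for 10 of 10 genes, and 2 of 10 were above it in COV434. Of 12 epithelial markers, 2 were above background in KGN and 2 in COV434, and of 10 endothelial markers 2 and 3. Of 11 theca and stromal markers, 7 were above it in KGN and 5 in COV434. The array of empty vector replicate 1 stood apart: its ACTB signal near the 3′ end exceeded that near the 5′ end by 7.81 on the log2 scale, against 1.51 to 2.58 on the other arrays, and the same gap for GAPDH was 4.67 against 0.10 to 1.08. The part of RNA quality in the COV434 effects was not tested, and each main result is therefore given with all 12 arrays and with the 11 left without it.

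With all 12 arrays the difference of effects passed an adjusted p of 0.05 for 27 probe sets (0.0494% of those tested), 9 positive and 18 negative. Without empty vector replicate 1 it passed for 465 (0.851%), 177 positive and 288 negative, and these held all 27 of the first set with the same signs. The knockdown effect in KGN passed for 96 probe sets (0.176%), 46 higher and 50 lower, and the mutant effect in COV434 for 16 (0.0293%), 12 higher and 4 lower. Without that array the latter count was 1373 (2.51%), and the knockdown count, in a fit that shares 1 estimate of the spread, was 216 (0.396%). The spreads so joined were unequal. Their median residual SD was 0.207 with empty vector, 0.0938 with mutant FOXL2, 0.113 in KGN control and 0.114 after knockdown. With COV434 fitted on its own, the mutant effects of BAMBI, KDSR and SMAD3 no longer passed (limma adjusted p = 0.554 for each). At an unadjusted p under 0.05, 2.44% of all probe sets were higher and 1.78% lower after knockdown, 4.98% higher and 8.25% lower with the mutant, and 5.77% had a positive and 3.19% a negative difference.

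The effects in the 2 lines were close to uncorrelated over the whole array. The groups of both lines did not overlap, in opposite directions, for 1.19% of probe sets, and in the same direction for 1.01%, while 13.8% did not overlap in KGN and 14.5% in COV434. Pearson's r across the 54613 probe sets was -0.011 and Spearman's rho -0.007, which describes probe sets that share arrays and are not independent replicates. Opposite signs were seen for 50.3% of all probe sets and for 43.8% of the 96 that passed in KGN. Of those 96, 10 had a same-sign effect in COV434 at an unadjusted p under 0.05 and 6 an opposite one, together 16.7% against 13.2% of all probe sets. The 1373 probe sets that passed in COV434 without empty vector replicate 1 had the opposite sign in KGN more often, at 60.7% against 51.9% of all probe sets in that fit, and in KGN 116 of them were opposite and 64 alike at an unadjusted p under 0.05, together 13.1% against 7.08% of all probe sets.

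**Figure D1:**
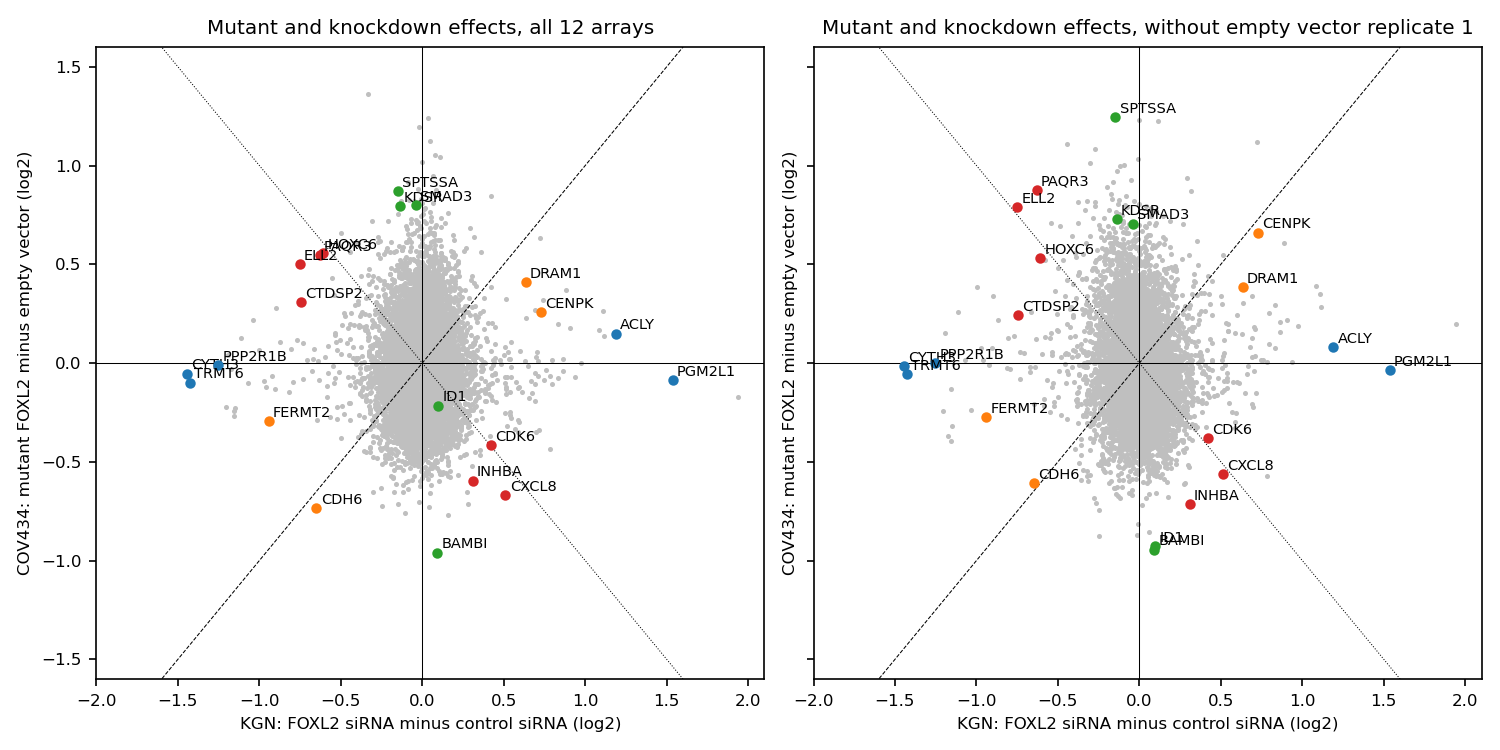
Each grey point is a gene above background in both lines (1 probe set per gene), with the KGN knockdown effect on the x axis and the COV434 mutant effect on the y axis, both in log2 units, for all 12 arrays (left) and without empty vector replicate 1 (right). Named genes are red for opposite effects, orange for shared effects, blue for KGN and green for COV434; the dotted line marks effects of equal size and opposite sign and the dashed line equal effects, and the cloud follows neither (Pearson's r -0.011 over all probe sets).

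Responses were sorted by rule. A response was called opposite, or shared, where the effect had an unadjusted p under 0.01 in each line with opposite, or the same, signs. It was placed in 1 line where that line's effect and the difference both passed an adjusted p of 0.05, the other line's p was at least 0.05, and the other line's whole 95% interval was smaller in size than 0.5 times the effect. Of the 27 probe sets with a difference, 23 fell into a class, mostly those of KGN.

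Responses placed in KGN numbered 15 probe sets (0.0275%), 6 higher and 9 lower after knockdown, and 13 of the 15 were above background in COV434. This number was 55 (0.101%) without empty vector replicate 1, 25 higher and 30 lower. PGM2L1, a glucose 1,6-bisphosphate synthase, had the largest positive difference of any single-symbol gene that passed. It read 6.89, 6.75 and 6.64 in KGN control and 8.24, 8.25 and 8.41 after knockdown, and 5.52, 5.34 and 5.37 with empty vector against 5.32, 5.29 and 5.36 with mutant FOXL2. The KGN groups were well apart and the COV434 groups overlapped. The knockdown effect of PGM2L1 was 1.54 (SE 0.10), a fold of 2.9, the mutant effect -0.09 (95% interval -0.30 to 0.13), and the difference 1.62 (1.32 to 1.93, limma adjusted p = 0.00183).

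ACLY, which makes cytosolic acetyl-CoA for lipid synthesis and histone acetylation, read 10.93, 10.89 and 10.89 in KGN control and 12.11, 12.14 and 12.02 after knockdown. The same gene read 10.87, 11.09 and 11.04 with empty vector and 11.15, 11.07 and 11.23 with the mutant. The KGN groups were apart and the COV434 groups overlapped. ACLY rose 2.28-fold in KGN, its mutant effect was 0.15 (95% interval -0.05 to 0.35), and the difference was 1.04 (adjusted p = 0.0145). The 2 further ACLY probe sets, above background in both lines, had mutant effects of 0.05 and 0.57, or -0.41 and -0.37 without empty vector replicate 1. Their differences missed the threshold with 12 arrays (adjusted p = 0.521 and 0.914) and passed without that array (0.0124 and 0.026). ACLY is thus uncertain as a response of KGN alone. ACLY was 1 of 14 measured fatty acid synthesis genes, and the only one of them whose difference passed with either set of arrays. HMGA2, an architectural chromatin protein of embryonic and tumour cells, rose by 0.93 in KGN and had a mutant effect of -0.07 (difference 1.01, adjusted p = 0.0219). TMEM87B, a Golgi membrane protein, rose by 1.94 in KGN at its brightest probe set. Its difference of 2.11 had an adjusted p of 0.0572 with 12 arrays and 0.00216 without empty vector replicate 1, which read 6.95 where the other empty vector arrays read 6.04 and 5.63. The other TMEM87B probe set, below background in COV434, had a difference of 1.44 that passed with 12 arrays (limma adjusted p = 0.0429).

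Among the genes that fell in KGN, CYTH3 had the largest difference after FOXL2 of those represented by their brightest probe set. CYTH3 is a cytohesin, an exchange factor for ARF GTPases that binds phosphoinositides. It read 9.95, 10.08 and 10.05 in KGN control, 8.58, 8.49 and 8.67 after knockdown, 7.32, 7.25 and 7.16 with empty vector and 7.16, 7.16 and 7.25 with the mutant. Every knockdown array was more than 1 log2 unit under every control array, and in COV434 the groups overlapped. The difference was -1.39 (95% interval -1.67 to -1.11, adjusted p = 0.00263).

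PPP2R1B, a structural subunit of protein phosphatase 2A, read 8.97, 9.01 and 8.86 in KGN control and 7.60, 7.78 and 7.70 after knockdown. In COV434 it read 9.32, 9.34 and 9.24 with empty vector and 9.26, 9.31 and 9.30 with the mutant, and the groups overlapped. Its mutant effect was -0.01 with an interval of -0.21 to 0.19, against a knockdown effect of -1.25 (difference -1.24, adjusted p = 0.0037). Other PPP2R1B probe sets above background in both lines had mutant effects of -0.41 (unadjusted p = 0.0112, knockdown effect -0.20) and -0.28 (unadjusted p = 0.043), so PPP2R1B is uncertain as a response of KGN alone. TRMT6, a subunit of the tRNA adenosine methyltransferase, fell by 1.43 in KGN at its brightest probe set, with a mutant effect of -0.10. Its other probe set disagreed on the class, with effects of -0.80 in KGN and -0.62 in COV434, which leaves TRMT6 uncertain too.

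SLC39A14, a zinc and iron importer, fell by 1.11 in KGN and had a mutant effect of 0.13 (difference -1.24, adjusted p = 0.0145). It left the KGN class without empty vector replicate 1, where its mutant effect was 0.26 (unadjusted p = 0.0125). RPRD1A, which binds the tail of RNA polymerase II, fell by 1.19 (difference -1.23, adjusted p = 0.0289). PAK2, a kinase downstream of CDC42 and RAC, fell by 0.92, MORF4L2, a subunit of histone acetyltransferase complexes, by 0.87, and RUBCN, an inhibitor of autophagosome maturation, by 0.73, with adjusted p-values of the difference of 0.0436, 0.0436 and 0.0493. MORF4L2 was also no longer placed in KGN alone without that array. Several of these genes have further probe sets with small effects: over all probe sets of CYTH3 the knockdown effect ran from -1.44 to -0.08, over those of PAK2 from -0.92 to -0.02, and over those of PGM2L1 from 0.02 to 1.54. For RPRD1A, with 5 of 6 probe sets above background in both lines, the knockdown effect ran from -1.21 to -0.02 and the difference from -1.23 to 0.07.

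Responses placed in COV434 were few with 12 arrays, 4 probe sets (0.00732%), of which KDSR and BAMBI were above background in both lines. Without empty vector replicate 1 there were 102 (0.187%), 75 higher and 27 lower with the mutant, so the size of this class rests on that array. BAMBI is a pseudoreceptor that dampens TGF-β and BMP signalling. It read 7.16, 7.22 and 7.00 with empty vector and 6.07, 6.32 and 6.11 with mutant FOXL2, while KGN control cells read 10.40, 10.12 and 10.32 and knockdown cells 10.36, 10.44 and 10.33. All mutant arrays lay below all empty vector arrays, including replicate 1, and the KGN groups overlapped. The mutant effect of BAMBI was -0.96 (a fold of 1.95, adjusted p = 0.0207), and its difference was 1.05 with all arrays (adjusted p = 0.0429) and 1.04 without the doubtful one (adjusted p = 0.0178). With COV434 fitted on its own the mutant effect no longer passed (adjusted p = 0.554), and the difference passed in 2 of the 12 fits that each leave out 1 array.

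KDSR, a reductase of sphingolipid synthesis, read 7.76, 7.81 and 8.09 with empty vector and 8.66, 8.62 and 8.76 with the mutant, against 10.07, 10.06 and 10.01 in KGN control and 9.94, 9.85 and 9.94 after knockdown. The groups did not overlap in either line, in opposite directions, so a small fall in KGN is not excluded by its place in the COV434 class. The mutant effect was 0.79 (adjusted p = 0.0264, or 0.554 with COV434 fitted on its own) and the knockdown effect -0.14 (limma unadjusted p = 0.198). The difference was -0.93 (adjusted p = 0.0493). Over the 4 probe sets of KDSR the mutant effect ran from -0.01 to 0.79, and its difference also passed in 2 of the 12 fits that leave out 1 array. SPTSSA, which activates serine palmitoyltransferase at the entry of the same pathway, joined KDSR only without empty vector replicate 1 at its brightest probe set. It read 10.12 on that array and 9.08 and 8.92 on the other empty vector arrays, against 10.35, 10.22 and 10.16 with the mutant. Its mutant effect was 0.87 with all arrays (adjusted p = 0.159) and 1.24 without that array (adjusted p = 0.0012). Another SPTSSA probe set depended less on it, with mutant effects of 0.92 and 1.03 (unadjusted p = 5.02e-06 and 7.78e-07), and its difference had an adjusted p of 0.0804 with and 0.012 without that array. YPEL2, a small zinc-binding protein, had mutant effects of 1.05 and 1.23 in the same fits, and its difference of -1.11 passed only in the second (adjusted p = 0.0229).

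**Figure D2:**
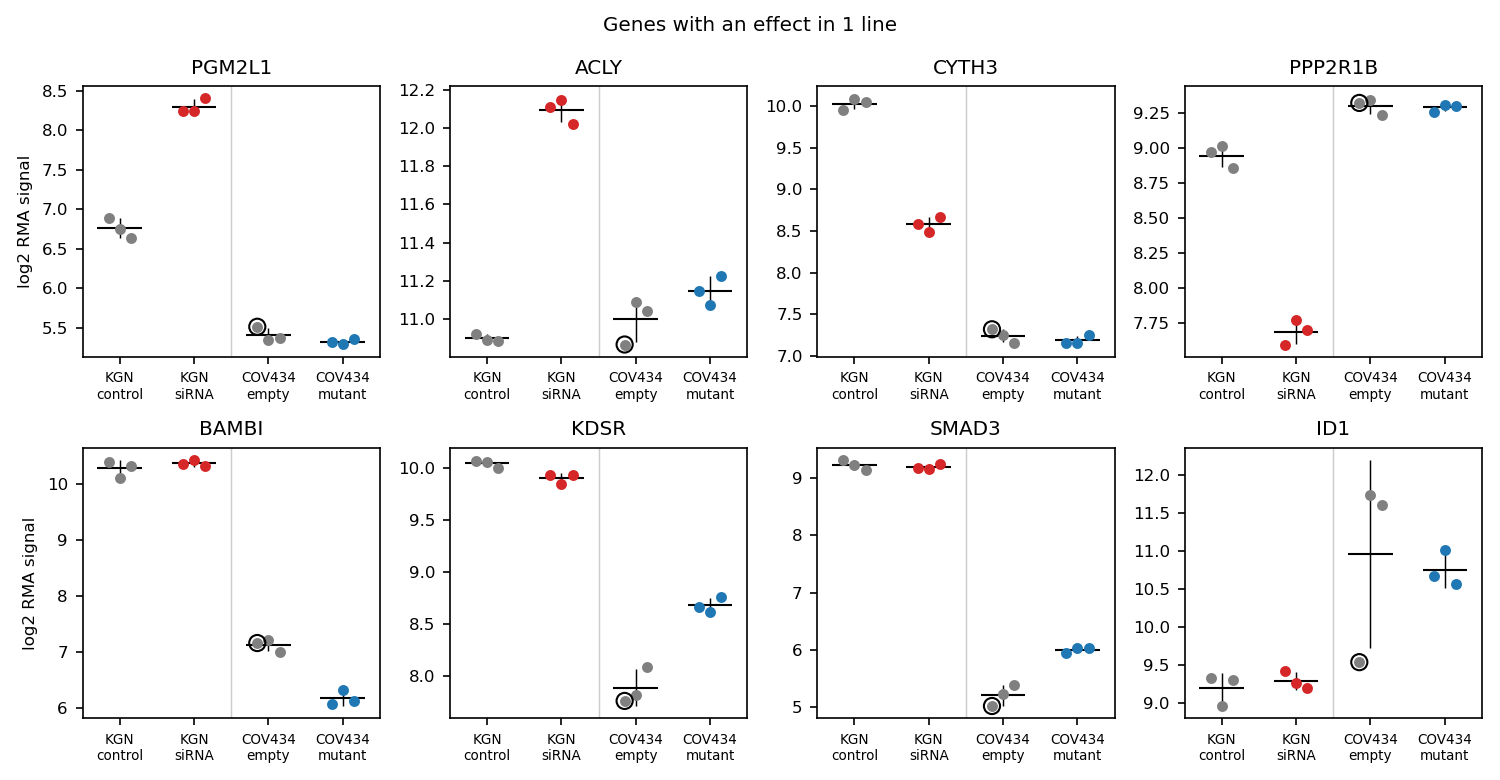
Log2 signal (y axis) of 8 genes on each of the 12 arrays, grouped by line and treatment, with points for arrays, horizontal bars for group means, vertical bars for SD (n = 3) and a ring around empty vector replicate 1. PGM2L1, ACLY, CYTH3 and PPP2R1B were apart in KGN and overlapped in COV434, whereas BAMBI and SMAD3 were apart in COV434 and overlapped in KGN. KDSR was apart in both lines, lower after knockdown and higher with the mutant. ID1 shows empty vector replicate 1 at 9.54, away from 11.74 and 11.61.

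Opposite responses were found for 23 probe sets (0.0421%), 17 higher after knockdown and lower with the mutant and 6 the other way. Only 9 of the 17 and 4 of the 6 were above background in both lines. Without empty vector replicate 1 there were 78 opposite responses (0.143%), 34 and 44 in these directions, and 16 of the first 23 were among them. Of the 34 and 44, 17 and 33 were above background in both lines. For comparison, 1.28% of all probe sets had an unadjusted p under 0.01 in KGN and 4.15% in COV434, or 2.23% and 8.51% without that array. No probe set had an adjusted p under 0.05 in both lines with opposite signs by limma, while 198 had an unadjusted p under 0.05 in both. The opposite class is thus a description of single genes, in which the difference itself passed for 4 of 23 probe sets with 12 arrays.

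HOXC6, a homeobox transcription factor, had the lowest adjusted p of the difference in this class with 12 arrays. It read 9.19, 8.84 and 9.08 in KGN control and 8.42, 8.49 and 8.38 after knockdown, and 8.00, 8.05 and 8.10 with empty vector against 8.62, 8.60 and 8.61 with mutant FOXL2. Neither pair of groups overlapped, and the effects of -0.61 and 0.56 were nearly equal in size. The difference was -1.17 (95% interval -1.48 to -0.86, adjusted p = 0.0118), and -1.14 without empty vector replicate 1 (adjusted p = 0.00677). Its knockdown effect had an adjusted p of 0.032, or 0.0771 with KGN fitted on its own.

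CTDSP2, a small phosphatase that can act on SMADs and on RNA polymerase II, also fell with knockdown. It read 9.21, 9.24 and 9.14 in KGN control and 8.42, 8.41 and 8.54 after knockdown, and 8.96, 9.13 and 9.19 with empty vector against 9.50, 9.36 and 9.35 with the mutant. The groups were apart in both lines, and the difference was -1.05 (adjusted p = 0.0163). Its mutant effect was 0.31 (unadjusted p = 0.00716) with all arrays and 0.24 (unadjusted p = 0.0219) without empty vector replicate 1, its lowest empty vector value, so that CTDSP2 then missed the rule for an opposite response. The other CTDSP2 probe set, above background in both lines, had effects of -0.67 and only 0.06 (limma unadjusted p = 0.503 for the latter). CTDSP2 is thus uncertain as an opposite response.

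SPSB1, an adaptor of a ubiquitin ligase that targets TGF-β receptors, read 7.21, 7.45 and 7.34 in KGN control and 6.75, 6.89 and 6.86 after knockdown. In COV434 it read 4.54, 5.05 and 5.11 with empty vector and 5.56, 5.50 and 5.62 with the mutant, with the empty vector arrays below background. The difference was -1.16 (adjusted p = 0.0621) and -0.98 without empty vector replicate 1 (adjusted p = 0.00905). PAQR3, a Golgi protein that tethers RAF kinase, ELL2, an elongation factor of RNA polymerase II, and SPATA18, a p53-induced factor of mitochondrial quality control, entered the class only without that array. Their differences were then -1.51, -1.54 and -1.43, with adjusted p-values of 0.00941, 0.0155 and 0.00169, against -1.18, -1.25 and -1.20 with all arrays, none of which passed. SPATA18 lay below background in COV434.

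In the other direction, CXCL8, the neutrophil chemokine interleukin-8, read 9.89, 10.23 and 10.02 in KGN control and 10.60, 10.58 and 10.50 after knockdown. It read 8.64, 8.53 and 8.13 with empty vector and 7.80, 7.62 and 7.90 with mutant FOXL2. The groups did not overlap in either line. The effects were 0.51 and -0.67, and the difference of 1.18 missed the threshold with 12 arrays (adjusted p = 0.0621) and passed without empty vector replicate 1 (1.07, adjusted p = 0.0251). The other CXCL8 probe set, above background in both lines, had effects of 0.40 and -0.09. Its difference passed in neither fit (adjusted p = 0.804 and 0.246), so CXCL8 is uncertain as an opposite response. IL6, an inflammatory cytokine, had effects of 0.36 and -0.24 and entered the class only in the second fit (difference 0.77, adjusted p = 0.033), but its COV434 signals of 3.49 to 4.16 were below background.

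CDK6, a cyclin D-dependent kinase of the G1 phase, read 9.84, 9.71 and 9.68 in KGN control and 10.22, 10.09 and 10.16 after knockdown, and 7.67, 7.71 and 7.41 with empty vector against 7.23, 7.21 and 7.11 with the mutant. It was thus higher in every knockdown array and lower in every mutant array, by 0.42 in each case. Its difference was 0.84 (adjusted p = 0.0793; 0.0311 without empty vector replicate 1), and over its 7 probe sets the difference ran from -0.40 to 0.84, so the gene was not uniform. TNFSF4, the OX40 ligand, had effects of 0.59 and -0.35, SMIM13, a small membrane protein, 0.57 and -0.33, and SAP30L, a subunit of SIN3 histone deacetylase complexes, 0.41 and -0.42. Their differences of 0.93, 0.90 and 0.83 had adjusted p-values of 0.0601, 0.0621 and 0.153, and the first 2 passed without that array (0.0241 and 0.0236), although TNFSF4, SMIM13 and SAP30L all then missed the rule for an opposite response in COV434. Further SAP30L probe sets above background in both lines had effects of 0.52 and -0.03, and of 0.15 and -0.68. A further SMIM13 probe set above background in both had 0.07 and -0.20, so SAP30L and SMIM13 were not uniform. E2F1, which drives genes of DNA replication, was opposite only without it (0.34 and -0.33, adjusted p of the difference = 0.038).

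**Figure D3:**
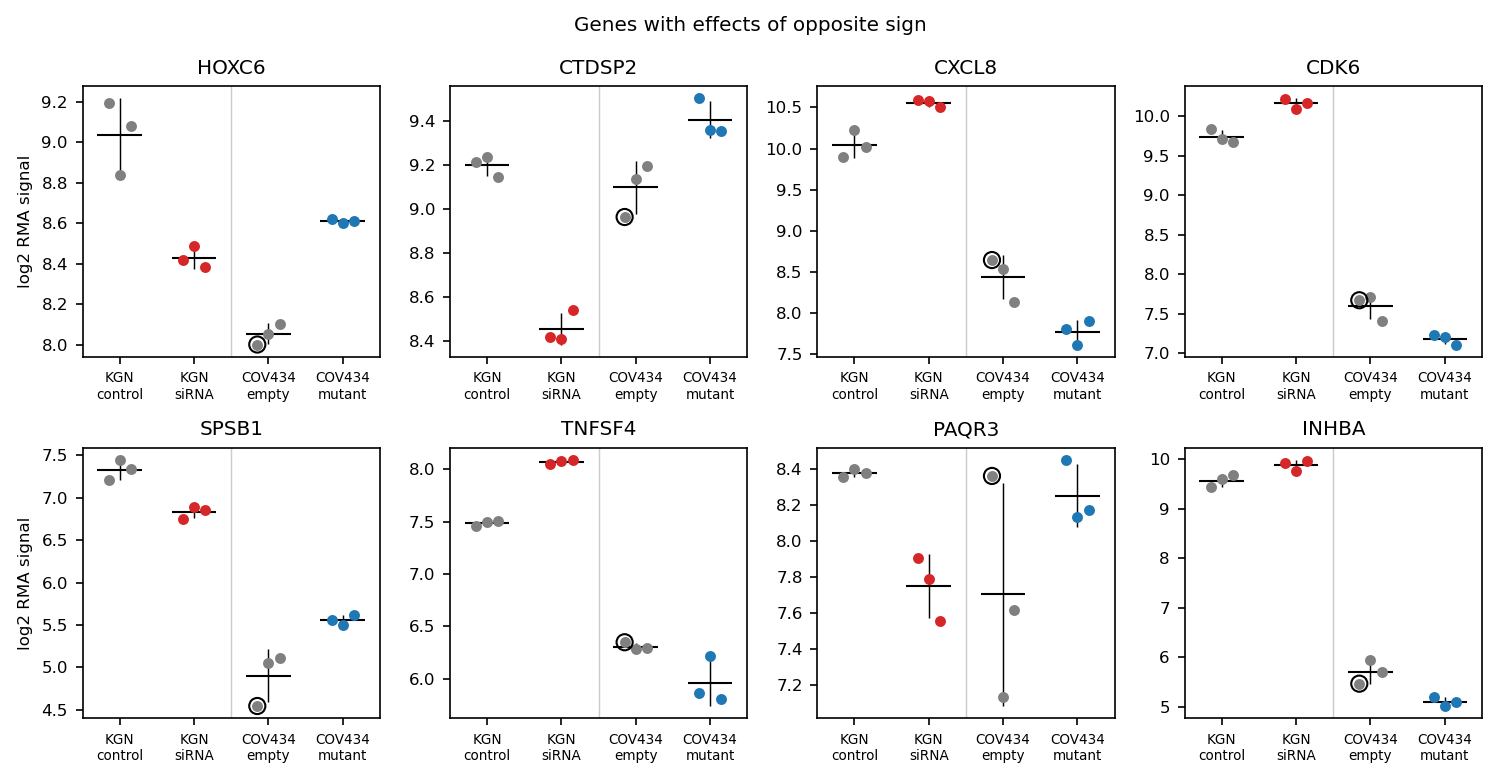
Log2 signal (y axis) of 8 genes on each of the 12 arrays, grouped by line and treatment, with points for arrays, horizontal bars for group means, vertical bars for SD (n = 3) and a ring around empty vector replicate 1. At the probe sets shown, HOXC6, CTDSP2 and SPSB1 were lower after knockdown and higher with the mutant, CXCL8, CDK6, TNFSF4 and INHBA had the reverse signs, and PAQR3 shows empty vector replicate 1 at 8.36 among the mutant values.

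Shared responses, in which loss of FOXL2 in KGN and added mutant FOXL2 in COV434 moved a gene the same way, were found for 19 probe sets (0.0348%), 9 higher and 10 lower. Only 4 of the 9 and 5 of the 10 were above background in both lines. Without empty vector replicate 1 there were 75 shared responses (0.137%), 49 and 26, and 15 of the 19 were among them. Of the 49 and 26, 27 and 19 were above background in both lines. The 26 hold the FOXL2 probe set itself, which is below background in COV434 and does not read the plasmid. Again no probe set passed an adjusted p of 0.05 in both lines by limma, and 173 had an unadjusted p under 0.05 in both. The mean of both effects passed an adjusted p of 0.05 for 44 probe sets (0.0806%), and for 194 (0.355%) without that array, but it can pass on the strength of KGN alone.

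DRAM1, a lysosomal protein that p53 induces and that takes part in autophagy, was higher in both. It read 8.98, 9.04 and 9.05 in KGN control and 9.68, 9.58 and 9.71 after knockdown, and 7.91, 7.97 and 7.99 with empty vector against 8.37, 8.35 and 8.37 with the mutant. The groups were apart in both lines and the 3 empty vector arrays, replicate 1 included, were close together. The effects were 0.64 and 0.41, their mean 0.52 (adjusted p = 0.00369) and their difference 0.23 (95% interval -0.03 to 0.48). SLC35E4, a member of a nucleotide sugar transporter family, had effects of 0.36 and 0.56 (mean 0.46, adjusted p = 0.037). FGF1, a fibroblast growth factor, had effects of 0.42 and 0.55, but its COV434 signals of 3.99 to 4.93 were below background.

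FERMT2, the integrin activator kindlin-2, was lower in both treated groups. It read 11.65, 11.63 and 11.62 in KGN control and 10.66, 10.71 and 10.70 after knockdown, and 11.99, 11.97 and 11.88 with empty vector against 11.64, 11.67 and 11.64 with the mutant. The effects were -0.94 and -0.29 (mean -0.62, adjusted p = 0.00117), with the larger effect in KGN. The difference of -0.65 had an adjusted p of 0.0804 with all arrays and 0.0227 without empty vector replicate 1. CDH6, a cadherin of kidney and ovarian tumours, had effects of -0.65 and -0.74 (mean -0.69, adjusted p = 0.0339) but lay below background in COV434 on average. DCAF10, a substrate receptor of a ubiquitin ligase, had effects of -0.48 and -0.26 (mean -0.37, adjusted p = 0.0408), and TMEM87A, a Golgi protein, -0.28 and -0.29, with a mean that missed the threshold (-0.29, adjusted p = 0.185). Further DCAF10 probe sets above background in both lines had knockdown effects of -0.65 and -0.64 but mutant effects of only -0.04 and -0.15. DCAF10 is thus uncertain as a shared response.

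Several shared increases appeared only without empty vector replicate 1. CENPK, a kinetochore protein, read 9.47 on that array and 8.24 and 8.30 on the other empty vector arrays, against 8.97, 8.91 and 8.92 with the mutant. It read 8.03, 8.23 and 8.05 in KGN control and 8.91, 8.90 and 8.68 after knockdown, a knockdown effect of 0.73. The mutant effect was 0.26 with that array and 0.66 without it, and the mean of both effects passed only in the second case (adjusted p = 0.468 and 8.49e-04). ATP11A, a phospholipid flippase, behaved alike, with mutant effects of 0.63 and 1.12 beside a knockdown effect of 0.72. TMEM64, an endoplasmic reticulum protein, had a knockdown effect of 0.88 and mutant effects of 0.37 and 0.61 at its brightest probe set, while another of its probe sets gave 0.92 in KGN and -0.22 in COV434, a difference that passed (1.15, adjusted p = 0.00821).

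**Figure D4:**
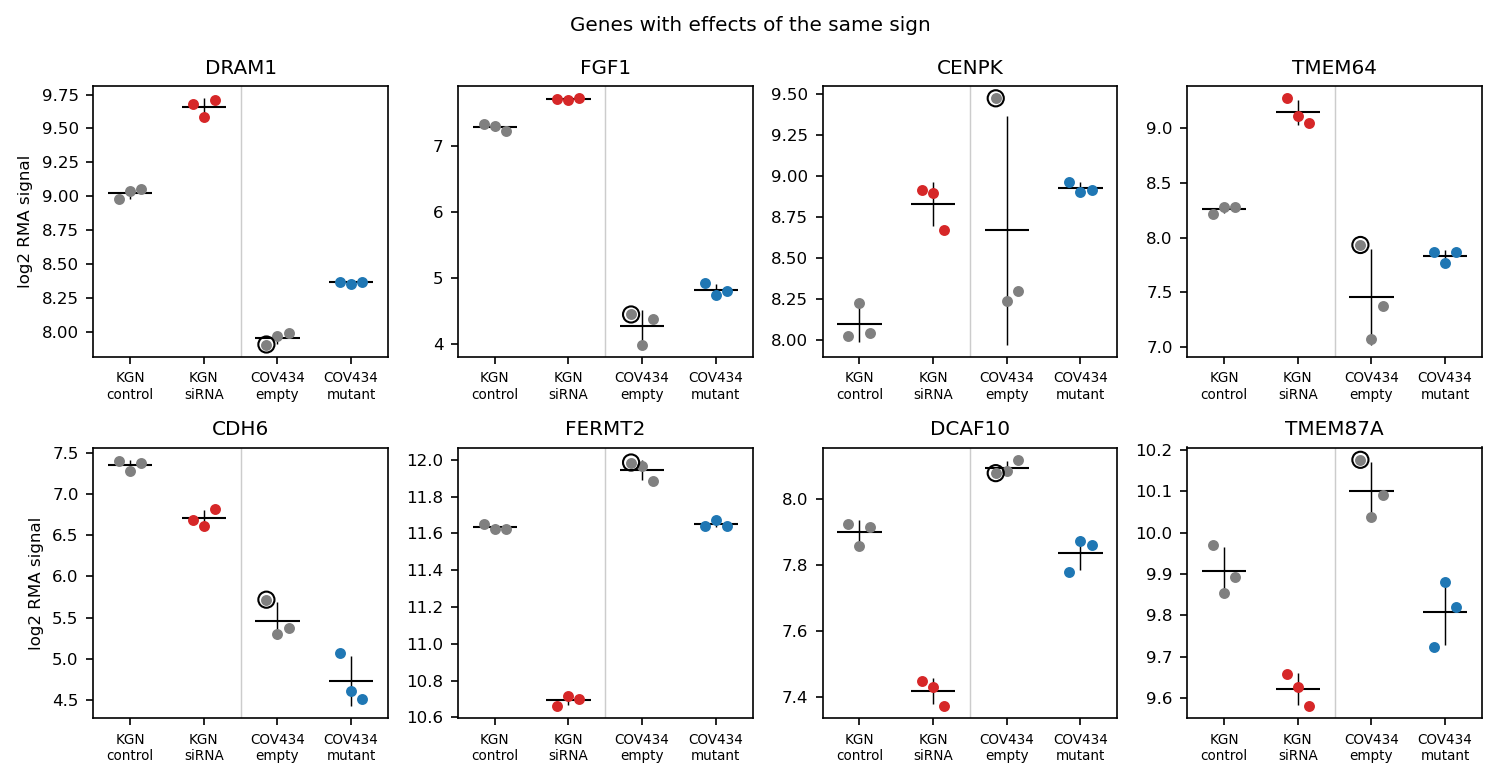
Log2 signal (y axis) of 8 genes on each of the 12 arrays, grouped by line and treatment, with points for arrays, horizontal bars for group means, vertical bars for SD (n = 3) and a ring around empty vector replicate 1. At the probe sets shown, DRAM1 and FGF1 were higher and CDH6, FERMT2, DCAF10 and TMEM87A lower in both treated groups; for CENPK the ringed array read 9.47, above all 3 mutant arrays.

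Genes of the TGF-β superfamily were read by role, since FOXL2 works with SMADs. Of 22 measured ligand genes none had a difference that passed with 12 arrays by limma, with 2 positive and 1 negative at an unadjusted p under 0.05. At that level 5.77% of all probe sets were positive and 3.19% negative, shares that also apply to the lists below. Without empty vector replicate 1, INHBA alone passed among the ligand genes. INHBA encodes the βA subunit of activin A, which signals through SMAD2 and SMAD3. It read 9.43, 9.60 and 9.67 in KGN control and 9.92, 9.75 and 9.96 after knockdown, and 5.47, 5.94 and 5.70 with empty vector against 5.20, 5.02 and 5.10 with the mutant. It was higher in every knockdown array and lower in every mutant array, where it lay near background. The effects were 0.31 and -0.59, and the difference 0.90 (adjusted p = 0.123; 1.02 and 0.017 without empty vector replicate 1).

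Among 11 antagonists of the superfamily, BAMBI was the only one whose difference passed with either set of arrays. Among 13 receptor genes, TGFBR1, the type I receptor for TGF-β, was the one whose knockdown effect passed. It read 9.43, 9.54 and 9.53 in KGN control and 10.73, 10.47 and 10.55 after knockdown, and 9.30, 8.62 and 8.64 with empty vector against 9.07, 8.89 and 9.11 with the mutant. Knockdown raised it 2.12-fold at its brightest probe set (1.08, adjusted p = 0.0136; -0.05 to 1.08 over its 3 probe sets), and the mutant effect was 0.17 with all arrays and 0.39 without empty vector replicate 1, again its highest control array. The difference was 0.92 (adjusted p = 0.24) and 0.69 (adjusted p = 0.045) in these fits.

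Of 14 SMAD signal carriers and regulators, all above background in both lines, SKI had a difference that passed with 12 arrays and 5 passed without empty vector replicate 1. The shares of all probe sets that passed were 0.0494% and 0.851% in these fits. SKI is a corepressor that holds SMAD complexes inactive. It read 9.57, 9.61 and 9.53 in KGN control and 8.62, 8.58 and 8.82 after knockdown, and 9.41, 9.02 and 9.42 with empty vector against 9.65, 9.42 and 9.61 with the mutant. The KGN groups were apart and the COV434 groups overlapped at 9.42. The effects were -0.90 (adjusted p = 0.00738) and 0.28 (unadjusted p = 0.0438), and the difference -1.17 (adjusted p = 0.0429). Over the 3 probe sets of SKI, all above background in both lines, the knockdown effect ran from -0.90 to 0.10. SKIL, its homologue, had effects of -0.33 and 0.12 and passed only without that array (difference -0.60, adjusted p = 0.0391).

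SMAD3, which carries TGF-β and activin signals, moved in COV434. It read 5.02, 5.22 and 5.37 with empty vector and 5.94, 6.03 and 6.03 with the mutant, and 9.32, 9.23 and 9.14 in KGN control against 9.17, 9.16 and 9.25 after knockdown. The mutant effect was 0.80 (a fold of 1.74, adjusted p = 0.0282), the knockdown effect -0.04 and the difference -0.84 (adjusted p = 0.0804; 0.0251 without empty vector replicate 1). The mutant effect no longer passed with COV434 fitted on its own (adjusted p = 0.554). Over the 4 probe sets of SMAD3 it ran from -0.41 to 0.80, and 2 of the 4 differences were negative, so SMAD3 is uncertain. SMAD6, an inhibitory SMAD, had effects of 0.27 and -0.46, and SMAD1, a carrier of BMP signals, -0.26 and 0.23. Their differences passed only without that array (0.71 with adjusted p = 0.0408 and -0.78 with adjusted p = 0.021). Over the 4 probe sets of SMAD6, of which 1 was above background in both lines, the mutant effect ran from -0.46 to 0.31. The difference of SMAD6 ran from -0.14 to 0.73 over them. For SMAD1 the mutant effect ran from -0.32 to 0.23 over 3 probe sets, so SMAD6 and SMAD1 were not uniform.

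Among 17 response genes of TGF-β and BMP, none passed for the difference with 12 arrays by limma, while 1 was positive and 5 negative at an unadjusted p under 0.05. The shares over all probe sets at that level were 5.77% and 3.19%. THBS1, an activator of latent TGF-β, had a mutant effect of 0.68 and PMEPA1, a feedback inhibitor, of 0.63 (adjusted p = 0.0769 and 0.0642; 0.03 and 0.0219 without empty vector replicate 1), with knockdown effects of -0.01 and 0.20. ID1 and ID3, helix-loop-helix proteins that BMP signals induce, had mutant effects of -0.22 and -0.59. ID1 read 9.54, 11.74 and 11.61 with empty vector and 10.67, 11.01 and 10.57 with the mutant, so that its effect was -0.93 without replicate 1 (difference 1.02, adjusted p = 0.0385). The knockdown effects of ID1 and ID3 were 0.10 and -0.06.

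**Figure D5:**
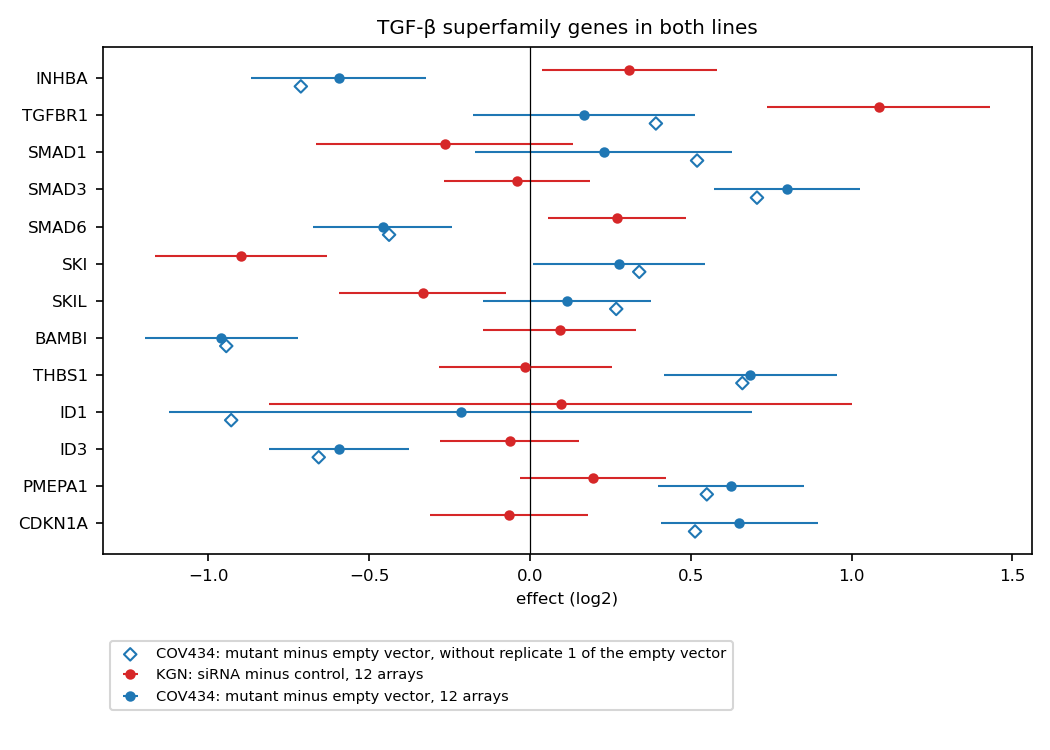
Effects in log2 units (x axis) for 13 genes of the TGF-β superfamily and its targets, with red points for the KGN knockdown effect and blue points for the COV434 mutant effect (bars: 95% intervals from the fit of 12 arrays) and open diamonds for the mutant effect without empty vector replicate 1. INHBA, SMAD6 and SKI, among others, had effects of opposite sign in the 2 lines, TGFBR1 rose in KGN, SMAD3 rose and BAMBI fell in COV434, and the mutant effect of ID1, which has the widest interval, was -0.22 with and -0.93 without that array.

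Of 21 G1 regulators, none had a difference that passed with 12 arrays by limma (3 positive and 1 negative at an unadjusted p under 0.05), and CDK6, CDKN1A, CDKN1B and E2F1 passed without that array. CDKN1A, the p21 inhibitor of cyclin-dependent kinases, read 10.16, 10.53 and 10.62 with empty vector and 11.11, 11.08 and 11.08 with the mutant. Its mutant effect was 0.65 and its knockdown effect -0.07 (difference -0.72, adjusted p = 0.177; -0.58 and 0.0398 without that array). CDKN1B, the p27 inhibitor, had a mutant effect of 0.31 with all arrays and 0.60 without it, beside -0.12 in KGN.

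Of 26 genes of the S, G2 and M phases, none had a knockdown effect at an unadjusted p under 0.05. With the mutant, 4 were lower and none higher at that level, against 8.25% and 4.98% of all probe sets. At the same level 10 were lower and none higher without empty vector replicate 1, against 20.7% of all probe sets in either direction. In that fit 4 of the 26 mutant effects passed an adjusted p of 0.05 by limma. Of the differences in that fit, 8 were positive and none negative at an unadjusted p under 0.05. With all arrays the median effect of the 26 genes was -0.02 in KGN and -0.12 in COV434, against 0.01 and -0.02 over all genes. MKI67, a marker of cycling cells, had a mutant effect of -0.45 and a knockdown effect of 0.11, and was the 1 member whose difference passed without empty vector replicate 1 (0.61, adjusted p = 0.0463). All 4 probe sets of MKI67 were above background in both lines, and over them the mutant effect ran from -0.45 to 0.33 and the difference from -0.43 to 0.56, so the gene was not uniform. Among 19 p53 targets, TP53INP1, a stress protein that takes part in autophagy, rose by 1.11 in KGN (adjusted p = 6.52e-04) and had a mutant effect of 0.27 (difference 0.84, adjusted p = 0.0902).

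Of 24 measured interferon response genes, 1 had a knockdown effect below 0 and 1 a mutant effect above 0 at an unadjusted p under 0.05. By sign alone, 23 had a knockdown effect below 0, against 46.5% of all genes, and 16 of these also had a mutant effect above 0, against 21.7% of all genes. The list's median effect was -0.26 in KGN and 0.10 in COV434, and the signs were opposite for 70.8% of its members against 49.7% of all genes, or 66.7% against 53.6% without empty vector replicate 1. The 10 endothelial markers, of which 1 was above background in both lines, had 70% opposite signs with 12 arrays. With 12 arrays no member passed for either effect or for the difference by limma, and 3 had a negative difference at an unadjusted p under 0.05. Only 7 of the 24 were above background in both lines. RIGI, a sensor of viral RNA, was the exception without empty vector replicate 1, which read 6.59 against 5.54 and 5.89 on the other empty vector arrays and 6.96, 6.58 and 6.64 with the mutant. Its mutant effect was then 1.01 and its difference -1.32 (adjusted p = 0.0227), with a knockdown effect of -0.31.

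Of 24 genes of granulosa and Sertoli identity, FOXL2 was the only one whose difference passed with 12 arrays, and of 20 genes of steroid synthesis none passed with or without empty vector replicate 1 by limma (1 positive and none negative at an unadjusted p under 0.05 with 12 arrays). STAR, which brings cholesterol into mitochondria for steroid synthesis, had effects of 0.11 and -0.17, and CYP19A1, the aromatase that makes oestrogen, 0.08 and -0.02. Neither was above background in COV434, and CYP19A1 in neither line. Over the 7 probe sets of CYP19A1 the knockdown effect ran from -0.26 to 0.08. The study reported a significant fall of aromatase and a significant rise of STAR after knockdown. SOX9, a Sertoli cell factor that FOXL2 represses in the ovary, had a knockdown effect of 0.60 (unadjusted p = 0.00269, adjusted p = 0.407) and lay below background in COV434. That effect passed when the KGN arrays were fitted on their own (limma adjusted p = 0.0232). SOX4, another SOX factor, had effects of -0.35 and 0.17. Of 25 extracellular matrix genes, COL5A1, a fibrillar collagen chain, fell by 1.19 in KGN (adjusted p = 0.0136), and its difference passed only without empty vector replicate 1 (-1.37, adjusted p = 0.026), while its COV434 signals of 3.80 to 4.65 were below background.

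The genes that the study itself named were described with the same measures, although these arrays were used to choose them and their directions are no independent evidence. Of 23 measured genes from its overexpression list, 69.6% had opposite signs in the 2 lines, and of 49 from its knockdown list 51.0%, against 49.7% of all genes. None of these genes had a difference that passed with 12 arrays by limma, while 8 and 11 had an unadjusted p under 0.05. At that level 5.77% of all probe sets had a positive and 3.19% a negative difference.

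Promoters of the genes in each class were searched for letters that FOXL2 is known to bind, to show where they occur. RefSeq promoter windows on GRCh38.p14, from 250 bases before to 50 after the gene start, were searched on both strands for the forkhead core TGTTTAC and for GTCAAGG, reported as a FOXL2 element. The first was present in 3.41% and the second in 3.08% of all 27305 promoters. With 12 arrays the forkhead core was found in 0 of 15 promoters of opposite genes and 0 of 15 of shared genes, and GTCAAGG in 1 of 15 of each, HHIP and PCDHGA1. Among the larger classes without empty vector replicate 1, the core was found in 0 of 49 opposite and 1 of 48 shared genes (ZBTB5), and GTCAAGG in 2 of 49 opposite genes (HHIP and MIER1) and 0 of 48 shared genes. The windows of 30 bases are printed for the opposite genes and for ZBTB5, 5′ to 3′ on the gene's strand, with the match in capitals; a match is no evidence of binding.
HHIP, chr4:144646074-144646103, plus strand: gaagcggtgacGTCAAGGggcgcgctgtgg
MIER1, chr1:66930076-66930105, plus strand: tcccacacccaCCTTGACtccgccccctcc
ZBTB5, chr9:37465615-37465644, minus strand: ttcagtcggtaGTAAACAcaaccagacttc
HHIP, an inhibitor of hedgehog ligands, had effects of 0.41 in KGN and -0.64 in COV434 but lay below background in both lines. MIER1, a histone deacetylase cofactor, had effects of -0.27 and 0.42 without empty vector replicate 1.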

How the data were processed

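Per the labels and the study's methods, labelled RNA was read on Affymetrix U133 Plus 2.0 arrays, whose scans the authors checked with AffyQCReport and normalised by RMA with background correction in R. The deposited values are log2 signals, 1 per probe set and array; software versions and detection calls are not given in the sources used here. No signal value was shared between the lines, which appear to have been normalised separately, so levels were compared only within a line. The number of arrays, 3 per group, limits the precision.

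From these values, 62 array controls were left out of 54675 probe sets. Of the 54613 left, 41091 carried 1 gene symbol, 1801 several and 11721 none, and 54 single symbols were unmatched in the reference. A group-means model of 12 arrays was fitted with lmFit and eBayes (limma 3.58.1, R 4.3.3, two-sided, default settings), with contrasts for both effects, their difference and their mean. Benjamini-Hochberg adjustment ran over all 54613 probe sets. An exact permutation test of 3 arrays against 3 cannot go below 0.1, so none was used. The code was tested on simulated data. Where a gene had several probe sets, the brightest on average over the 12 arrays stood for it.

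Named genes were FOXL2, up to 8 per direction with the largest difference among genes whose representative probe set passed, up to 8 per direction of the opposite and shared classes ordered by the smaller effect, up to 8 per direction and line of the others above the other line's background ordered by effect, genes the study names, and list members past a test, by either set of arrays; some are given only by counts. HHIP, MIER1, ZBTB5 and PCDHGA1 (motif matches), SMARCA2, IL6, SPATA18 and the granulosa and RNA quality markers were named outside this order. The members, the gene lists and the promoter motifs were chosen with earlier results of these data known. Alternatives covered the arrays, the weights, the normalisation, the filter and the thresholds.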

Additional observations from a re-analysis of the deposited data

How the results depend on the processing

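With 12 arrays the difference of effects gave 9 higher and 18 lower probe sets, and the classes held 23 opposite, 19 shared, 15 KGN and 4 COV434 responses. In the same order the 6 counts were 70, 54, 37, 29, 41 and 18 with the 3 wildtype FOXL2 arrays added; 23, 24, 14, 13, 23 and 0 with each line fitted on its own; 6, 18, 15, 17, 15 and 3 after quantile normalisation of the 12 arrays; 9, 13, 24, 24, 14 and 2 with arrays centred on their medians; 46, 65, 56, 62, 43 and 14 with array weights; 18, 23, 22, 18, 21 and 5 with an intensity trend and robust estimation; 31, 29, 19, 12, 23 and 5 above background in both lines; and 22, 26, 15, 14, 19 and 5 with 1 probe set per gene. An alternative chosen after seeing the data, all 15 arrays but empty vector replicate 1, gave 620, 655, 133, 101, 89 and 262. Opposite and shared counts were 198 and 173 at an unadjusted p of 0.05 and 0 and 0 at an adjusted p of 0.05 in each line.

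Leaving out 1 array at a time gave 3 to 177 higher, 5 to 288 lower, 11 to 78 opposite, 10 to 75 shared, 6 to 55 KGN and 0 to 102 COV434 responses, each highest without empty vector replicate 1. The next highest counts, 38, 31, 48, 18 and 14 for all but the shared class, came without empty vector replicate 3, and 44 shared responses without KGN control replicate 2. Of the 27 differences, 8 passed in every such fit (PPP2R1B, SPRING1, FOXL2, MTCH2, CYTH3, TMEM64, PGM2L1 and TRMT6), the others in 2 to 6 of 12 fits, and all 27 kept their sign.

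Over 50 named genes and 550 recomputed differences, 427 kept direction and side of the threshold, 99 newly passed, 21 no longer passed and 3 reversed: ID1 ran from -0.078 without empty vector replicate 2 to 1.02 without replicate 1, and CYP19A1 from -0.13 without replicate 1, of both 12 and 15 arrays, to 0.30 without replicate 2. The causes were not tested. No paired analysis was possible because the labels give no replicate numbers.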

Other observations

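The 3 arrays with wildtype FOXL2 in COV434, which the difference of effects does not use, gave values for the same genes. BAMBI averaged 7.13 with empty vector, 6.31 with wildtype and 6.17 with mutant FOXL2, and SPTSSA 9.37, 10.15 and 10.24. KDSR averaged 7.89, 8.38 and 8.68 in the same order, and HOXC6 8.05, 8.34 and 8.61. For CDK6 the means were 7.60, 7.17 and 7.18, and for CXCL8 8.44, 7.86 and 7.77. Both means are set against the same 3 empty vector arrays, replicate 1 included, and these genes were picked for their mutant effects.

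JUN and ATF3, immediate early genes, had mutant effects of 0.38 and 0.26 (0.35 and -0.0016 without empty vector replicate 1) and knockdown effects of -0.04 and -0.01. Of 21 immediate early genes, 4 were higher and none lower after knockdown at an unadjusted p under 0.05, and 3 were higher and 1 lower with the mutant. The shares over all probe sets were 2.44% and 1.78% after knockdown, and 4.98% and 8.25% with the mutant. Of 17 cholesterol synthesis genes, none had a difference at an unadjusted p under 0.05 with 12 arrays by limma, and their median effects were 0.08 in KGN and -0.03 in COV434. SMARCA2, a catalytic subunit of SWI/SNF complexes, was above background in KGN and below it in COV434, and none of 17 subunits had a difference at an unadjusted p under 0.05 with 12 arrays.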
